A study of Mus musculus with 9 samples.

Results

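The genes described here are 10 genes of MHC class II antigen presentation in mice, H2-Aa, H2-Ab1, H2-Eb1, H2-Ea, H2-DMa, H2-DMb1, H2-Oa, H2-Ob, Cd74 and Ciita, read in 9 gene expression arrays. They were taken by symbol, and a gene was represented by its brightest probe set (by the mean over 9 arrays) among those annotated to that gene alone. By this rule 9 of the 10 genes were measured, out of 19937 genes in all. The only probe set for H2-DMb1 is also annotated to H2-DMb2, so its values are given below for both genes together. The arrays fall into 3 groups of 3: microglia with high surface Ly6C (Ly6Chigh in the labels, which call the cells MgSCs), microglia with low surface Ly6C (Ly6CLow, called bulk microglia) and spleen monocytes. All came from wild-type C57BL/6 mice, with no treatment or transgene named, and the sources used here give no age. The antibody panel of the sort included CD45, CD11b, EMR1, Ly6C and one against MHC class II itself, but the sources do not state the gates. How far the sort fixed the level of the class II chains is therefore unknown. Nothing in the labels ties an array to an animal or culture of its own, so the p-values cover only the spread seen among these arrays, which may be technical.

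MHC class II molecules are pairs of an alpha and a beta chain that show peptides from the endosome to CD4 T cells. The new pair is held by the invariant chain, encoded by Cd74, which blocks the groove and steers the pair to the endosome. There H2-DM (encoded by H2-DMa with H2-DMb1 or H2-DMb2) exchanges the last invariant chain fragment for peptide, and H2-O (H2-Oa and H2-Ob), best known from B cells, restrains H2-DM. Ciita encodes the transactivator that switches on the class II chains, Cd74 and H2-DM. Dendritic cells and B cells carry class II at all times, whereas resting microglia are known for low levels that rise in inflammation.

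All 9 measured genes were lower in every array of both microglia groups than in any monocyte array. Over all genes this held for 21.9% with Ly6C-high microglia and for 19.1% with Ly6C-low microglia, each set against monocytes. For Ly6C-high microglia against monocytes the log2 fold changes ran from -5.26 to -3.32 for H2-Aa, H2-Ab1, H2-Eb1, H2-Ea and Cd74. They ran from -2.32 to -1.32 for H2-DMa, H2-Oa, H2-Ob and Ciita, and these ranges were not tested against each other. The probe set shared by H2-DMb1 and H2-DMb2, which was outside the fit, differed by -3.79, within the first range. The value of -5.26 is that of H2-Ea, which is defective in C57BL/6 mice. Its probe set is counted among the 9 measured genes throughout, and whether it reads H2-Ea transcripts alone was not tested. Between the microglia groups the differences were smaller. There 2 of 9 genes passed the test, near the share of 15.4% of all genes. These were Cd74 and H2-Ab1, both lower in Ly6C-high microglia. Values below are log2 intensities, on which 1 unit is a 2-fold difference. Means are given ± SD with n = 3 arrays a group, and fold changes carry a standard error (SE). The adjusted p is from a limma fit of all 9 arrays with Benjamini-Hochberg adjustment over 19937 genes and a threshold of 0.05. In this fit the 3 groups share the estimate of a gene's spread, so arrays outside a comparison also affect its SE and p. The number of arrays limits the precision, and no detection call accompanies the deposited values, so whether a low value lies above background cannot be told. In bulk RNA, fewer cells of a type and less RNA per cell cannot be told apart. Levels of different genes are not compared, because probe sets differ in brightness.

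Class II promoters are known for an X box, bound by the RFX complex, followed by a Y box, bound by NF-Y, to which the Ciita protein is recruited. The RefSeq promoter table (build GRCm38.p6) held 7 start sites for 6 of the 10 genes. Both boxes were searched as plain letters in the 150 bases before each start, G, any base, AAC, any 2 bases and ATG for the X core and TGATTGG for the Y box, on both strands; the motifs do not overlap each other. Among all 32851 promoters of the table, the same window held the X core in 1.14% and the Y box in 5.71%, and an X core followed on the same strand by a Y box 10 to 30 bases on in 0.0152%, which is 5 promoters. The 5 stretches with a match are shown, 5′ to 3′, because each holds the Y box and some also the X core, with the matches in capitals.
H2-Aa: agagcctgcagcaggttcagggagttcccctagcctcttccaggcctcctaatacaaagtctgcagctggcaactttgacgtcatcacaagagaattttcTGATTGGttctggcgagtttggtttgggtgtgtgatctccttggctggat
H2-Eb1: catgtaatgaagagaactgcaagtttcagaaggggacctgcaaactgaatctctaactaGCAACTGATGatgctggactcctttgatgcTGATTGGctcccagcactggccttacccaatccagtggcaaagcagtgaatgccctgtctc
H2-DMb1: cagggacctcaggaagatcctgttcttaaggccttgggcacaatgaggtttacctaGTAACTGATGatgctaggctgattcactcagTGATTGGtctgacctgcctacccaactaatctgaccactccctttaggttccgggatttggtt
H2-Oa: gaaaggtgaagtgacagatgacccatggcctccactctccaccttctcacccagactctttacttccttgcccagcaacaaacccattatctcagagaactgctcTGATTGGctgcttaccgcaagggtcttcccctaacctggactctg
H2-Ob: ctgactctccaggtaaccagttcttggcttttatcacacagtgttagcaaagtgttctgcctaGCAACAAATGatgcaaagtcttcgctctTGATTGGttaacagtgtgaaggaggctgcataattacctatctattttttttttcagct

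These stretches lie at chr17:34287824-34287973 on the minus strand for H2-Aa and on the plus strand at chr17:34305717-34305866 for H2-Eb1, chr17:34153041-34153190 for H2-DMb1, chr17:34092229-34092378 for H2-Oa and chr17:34238755-34238904 for H2-Ob. The Y box was found in all 5, and the X core stood before it in H2-Eb1, H2-DMb1 and H2-Ob, with 20, 21 and 18 bases between them. Neither set of letters was found before either annotated start of H2-DMa. A letter match describes the sequence and shows no binding, and the absence of these letters from this window says nothing about the factors.

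**Figure D1:**
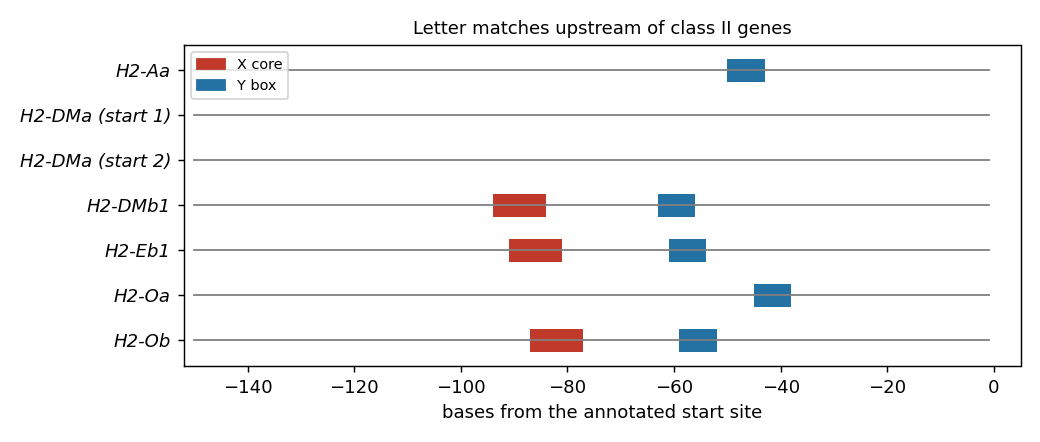
Positions of the X core and Y box letter matches in the 150 bases before each annotated start site of 6 class II presentation genes (7 start sites), with the distance from the start site in bases on the horizontal axis. In H2-Eb1, H2-DMb1 and H2-Ob both matches are present in the order X then Y, in H2-Aa and H2-Oa only the Y box, and in H2-DMa neither.

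The alpha and beta chain genes of I-A and I-E were lower in both microglia groups than in spleen monocytes. H2-Aa, the alpha chain of I-A, had 5.70, 6.61 and 5.88 in the Ly6C-high arrays, 6.14, 6.45 and 6.41 in the Ly6C-low arrays, and 10.97, 11.14 and 11.30 in the monocyte arrays. The microglia arrays overlapped each other and lay far below every monocyte array. The log2 fold change of H2-Aa was -5.07 ± 0.23 for Ly6C-high microglia against monocytes (33.6-fold lower, limma adjusted p = 6.30e-06) and -4.80 ± 0.23 for Ly6C-low microglia against monocytes (27.9-fold lower, limma adjusted p = 6.62e-06).

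H2-Ab1, the beta chain of I-A, had 6.43, 6.24 and 6.22 in the Ly6C-high arrays, 7.17, 7.17 and 7.08 in the Ly6C-low arrays, and 9.96, 10.19 and 10.65 in the monocyte arrays. Its 3 groups did not overlap, with Ly6C-high microglia lowest. Against monocytes H2-Ab1 was 15.7-fold lower in Ly6C-high microglia (log2 fold change -3.97 ± 0.17, limma adjusted p = 4.70e-06) and 8.74-fold lower in Ly6C-low microglia (-3.13 ± 0.17, limma adjusted p = 1.17e-05). Between the microglia groups H2-Ab1 differed by -0.84 ± 0.17 (1.79-fold lower in Ly6C-high microglia, limma adjusted p = 0.0109). Its partner H2-Aa had overlapping microglia arrays and a difference of -0.27 ± 0.23 (limma adjusted p = 0.471), which became -0.54 and passed without Ly6C-high array 2 (limma adjusted p = 0.0441). Whether the 2 chains differed in their change was not tested.

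H2-Eb1 encodes the beta chain of I-E. It had 6.36, 5.99 and 6.27 in the Ly6C-high arrays, 6.45, 6.34 and 6.40 in the Ly6C-low arrays, and 8.96, 9.47 and 10.14 in the monocyte arrays. The microglia arrays overlapped, with a difference of -0.19 ± 0.26 (limma adjusted p = 0.649), and both lay below monocytes. The log2 fold change against monocytes was -3.32 ± 0.26 for Ly6C-high microglia (limma adjusted p = 8.23e-05) and -3.13 ± 0.26 for Ly6C-low microglia (limma adjusted p = 1.13e-04).

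The probe set annotated to H2-Ea, the I-E alpha gene, had a profile close to that of H2-Aa. C57BL/6 mice are known to make no I-E because their H2-Ea is defective, and RefSeq classes it as a transcribed pseudogene. Its probe set read 5.72, 6.47 and 6.08 in the Ly6C-high arrays, 6.00, 6.19 and 6.46 in the Ly6C-low arrays, and 11.21, 11.24 and 11.61 in the monocyte arrays. The microglia arrays overlapped and all lay far below the monocyte arrays. The differences from monocytes were -5.26 ± 0.21 for Ly6C-high microglia and -5.14 ± 0.21 for Ly6C-low microglia (limma adjusted p = 3.88e-06 and 3.68e-06), while the microglia groups differed by -0.13 ± 0.21 (limma adjusted p = 0.714). After each gene was centred on its mean over the 9 arrays, H2-Ea and H2-Aa had a root mean square difference of 0.18, the smallest of the 36 pairs of measured members. Whether probes of this set also bind other class II transcripts was not tested, as probe sequences were not used here.

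Cd74, the invariant chain, had the larger of the 2 differences that passed between the microglia groups. It had 6.33, 7.40 and 7.72 in the Ly6C-high arrays, 8.49, 8.48 and 8.57 in the Ly6C-low arrays, and 11.25, 11.39 and 11.74 in the monocyte arrays. The 3 groups did not overlap, and the Ly6C-high arrays were spread over more than 1 unit (7.15 ± 0.73) while the Ly6C-low arrays were nearly equal (8.52 ± 0.05). Cd74 was 2.58-fold lower in Ly6C-high than in Ly6C-low microglia (log2 fold change -1.37 ± 0.32, limma adjusted p = 0.0208). That call ended without Ly6C-low array 1, 2 or 3 (limma adjusted p = 0.0541, 0.0649 and 0.0744) and when only the 6 arrays of the 2 groups were fitted (0.0630). Against monocytes Cd74 was 19.9-fold lower in Ly6C-high microglia (log2 fold change -4.31 ± 0.32, limma adjusted p = 5.74e-05) and 7.70-fold lower in Ly6C-low microglia (-2.95 ± 0.32, limma adjusted p = 4.27e-04).

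**Figure D2:**
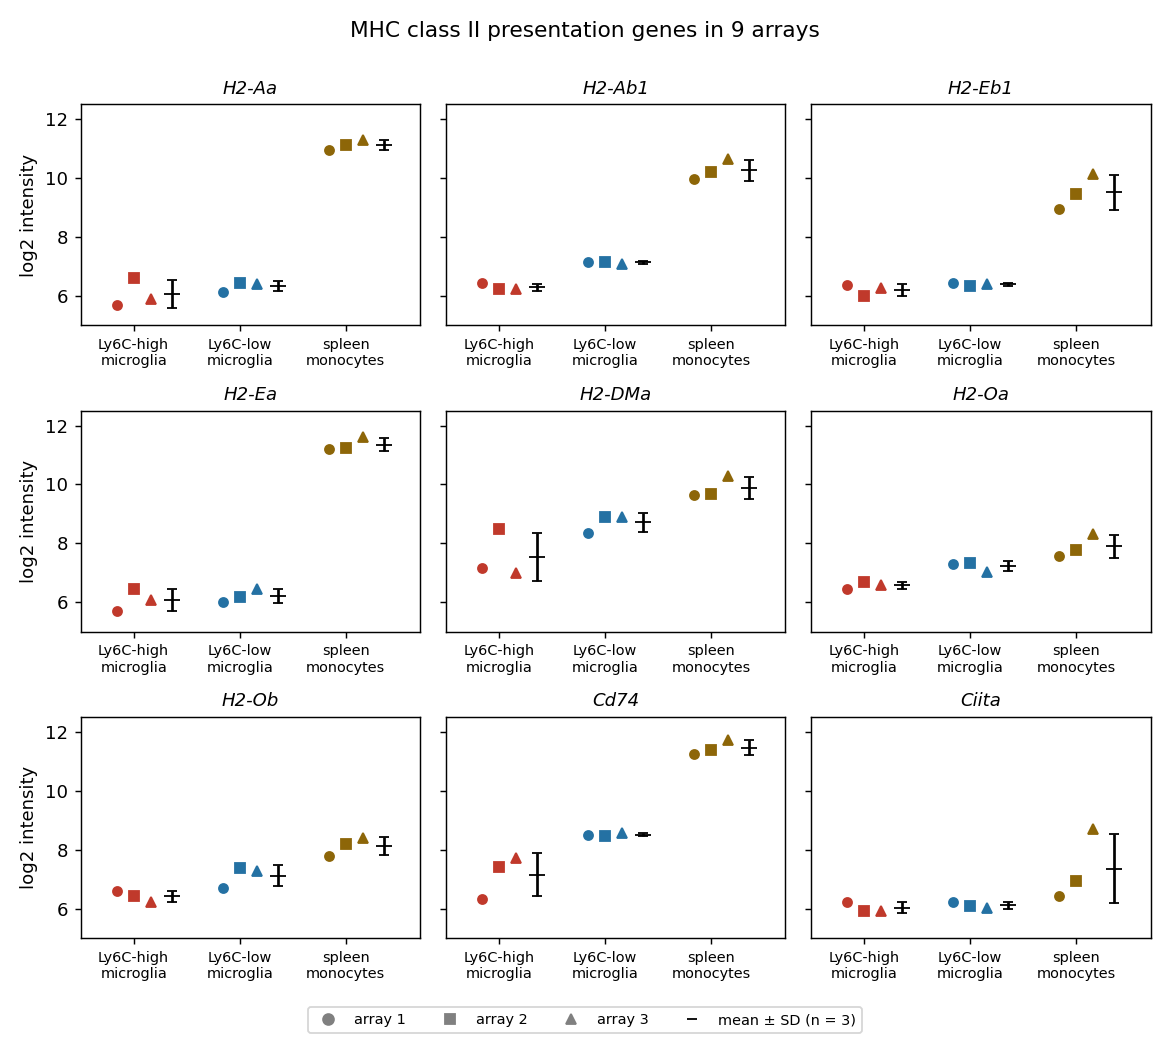
Log2 intensity (vertical axis) of the 9 measured class II presentation genes in Ly6C-high microglia, Ly6C-low microglia and spleen monocytes; a point is 1 array, its shape gives the array number, and the black bar beside each group is the mean ± SD (n = 3). The monocyte arrays lie above all microglia arrays in every panel, and the Ly6C-high arrays of Cd74 and H2-DMa are spread widely.

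The alpha chain of the peptide exchange factor was lower in Ly6C-high microglia than in monocytes, and its other differences did not pass. H2-DMa had 7.17, 8.49 and 7.00 in the Ly6C-high arrays, 8.35, 8.90 and 8.90 in the Ly6C-low arrays, and 9.65, 9.66 and 10.30 in the monocyte arrays. Ly6C-high array 2 lay within the Ly6C-low range and the other arrays of its group lay below it. H2-DMa was 4.99-fold lower in Ly6C-high microglia than in monocytes (log2 fold change -2.32 ± 0.39, limma adjusted p = 0.0039). Ly6C-low microglia differed from monocytes by -1.15 ± 0.39 (limma adjusted p = 0.0900), and Ly6C-high from Ly6C-low microglia by -1.17 ± 0.39 (limma adjusted p = 0.0812). Without Ly6C-high array 2 both of these passed, with limma adjusted p = 0.0109 at an unchanged value of -1.15 and limma adjusted p = 0.0037 at -1.64. The difference between the microglia groups also passed with array weights (-1.42, limma adjusted p = 0.0246) and when dim genes were left out (limma adjusted p = 0.0492).

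The probe set shared by H2-DMb1 and H2-DMb2, the beta chains of H2-DM, had 6.30, 7.02 and 6.13 in the Ly6C-high arrays, 7.00, 7.34 and 7.40 in the Ly6C-low arrays, and 9.97, 10.21 and 10.63 in the monocyte arrays. It was not part of the fit over genes. Ly6C-high array 2 again overlapped the Ly6C-low arrays, and both microglia groups lay wholly below monocytes. The differences in group means were -0.76 between the microglia groups (exact two-sided permutation p = 0.2), -3.79 for Ly6C-high microglia against monocytes and -3.02 for Ly6C-low microglia against monocytes (exact two-sided permutation p = 0.1 for both, the smallest that 3 against 3 arrays allow).

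Both subunits of H2-O, the inhibitor of H2-DM, were lower in Ly6C-high microglia than in monocytes. H2-Oa had 6.45, 6.68 and 6.60 in the Ly6C-high arrays, 7.31, 7.35 and 7.03 in the Ly6C-low arrays, and 7.58, 7.78 and 8.33 in the monocyte arrays. H2-Ob had 6.60, 6.43 and 6.23 in the Ly6C-high arrays, 6.70, 7.37 and 7.27 in the Ly6C-low arrays, and 7.79, 8.20 and 8.39 in the monocyte arrays. The 3 groups did not overlap for either gene, in the same order, Ly6C-high microglia lowest and monocytes highest.

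The log2 fold change of Ly6C-high microglia against monocytes was -1.32 ± 0.19 for H2-Oa and -1.71 ± 0.22 for H2-Ob (limma adjusted p = 0.0021 and 0.0010). Ly6C-low microglia were lower than monocytes in H2-Ob (-1.01 ± 0.22, limma adjusted p = 0.0154), a call that ended without monocyte array 2 or 3 (0.0604 and 0.0580). For H2-Oa the Ly6C-low difference from monocytes was -0.67 ± 0.19 (limma adjusted p = 0.0527), and it passed at -0.83 without monocyte array 1 (0.0374). Between the microglia groups the differences were -0.65 ± 0.19 for H2-Oa and -0.70 ± 0.22 for H2-Ob (limma adjusted p = 0.0562 and 0.0662). These too lay near the threshold. H2-Oa passed without monocyte array 1 or 3 (limma adjusted p = 0.0491 and 0.0178) and with only the 6 microglia arrays (0.0370). It also passed when dim genes were left out (0.0450) and, at -0.64, with the number in the labels' description as a random block (0.0348). H2-Ob passed at -0.91 without Ly6C-low array 1 (limma adjusted p = 0.0218), at -0.94 with array weights (0.0297) and when dim genes were left out (0.0493).

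Ciita, the transactivator, was low in all microglia arrays and uneven in monocytes. It had 6.24, 5.93 and 5.92 in the Ly6C-high arrays, 6.24, 6.08 and 6.02 in the Ly6C-low arrays, and 6.44, 6.95 and 8.70 in the monocyte arrays. The microglia groups overlapped, with a difference of -0.08 ± 0.49 (limma adjusted p = 0.921). Monocytes lay above both but were spread over more than 2 units, with array 3 highest. The differences of -1.33 ± 0.49 for Ly6C-high microglia against monocytes and -1.25 ± 0.49 for Ly6C-low microglia against monocytes did not pass (limma adjusted p = 0.0837 and 0.142). Without monocyte array 3 they were -0.66 and -0.58, and without monocyte array 1 that of Ly6C-high microglia was -1.79 and passed (limma adjusted p = 0.0387). The Ciita gene is known to have alternative promoters used by myeloid cells, by B cells and after interferon gamma, which 1 probe set for the gene does not separate.

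Monocyte array 3 was the highest of its group for 9 of 9 measured members, and monocyte array 1 the lowest for 9 of 9. Over all genes, array 3 was the highest for 32.8% and array 1 the lowest for 33.0%. Marker lists of cell types also varied among these arrays. The mean level of 12 dendritic cell markers was 6.30, 6.21 and 6.61 in monocyte arrays 1, 2 and 3, that of 11 B cell markers 8.05, 8.64 and 8.55, and that of 8 natural killer cell markers 6.63, 6.56 and 7.59. The mean of 7 plasmacytoid dendritic cell markers was 8.34, 8.37 and 8.13, lowest in array 3. T cell, border macrophage and nonclassical monocyte lists were also highest in array 3, and the classical monocyte list was lowest there. The neutrophil, endothelium and microglia lists were neither highest nor lowest in array 3. Their part in the spread of the class II genes was not tested.

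Counted over the members, 2 of 9 genes passed the test between Ly6C-high and Ly6C-low microglia, where 15.4% of all genes did. This count lies near the share of all genes. Both were lower in Ly6C-high microglia, as were 2185 of the 3080 genes called over all genes. The median log2 fold change of the members was -0.65, and that of all genes was 0.05. The arrays did not overlap, with Ly6C-high lower, for 4 of 9 members (H2-Ab1, H2-Oa, H2-Ob and Cd74) and 17.2% of all genes; 12.9% did not overlap the other way. The count of 2 was 4 without Ly6C-high array 2 and 1 without Ly6C-low array 2 or without Ly6C-low array 3.

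Set against monocytes, 8 of 9 members passed in Ly6C-high microglia, where 21.5% of all genes did. All 8 were lower, as were 2919 of the 4290 genes called over all genes, and the members' median log2 fold change was -3.32 beside 0.09 for all genes. Ly6C-low microglia differed from monocytes in 6 of 9 members, where 14.5% of all genes passed. All 6 were lower, as were 1538 of the 2894 genes called over all genes, and the members' median was -2.95 beside 0.05. In both comparisons the arrays of 9 of 9 members did not overlap, which held in that direction for 21.9% of all genes with Ly6C-high microglia and 19.1% with Ly6C-low microglia (24.1% and 23.2% the other way). The 2 comparisons share the monocyte arrays.

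**Figure D3:**
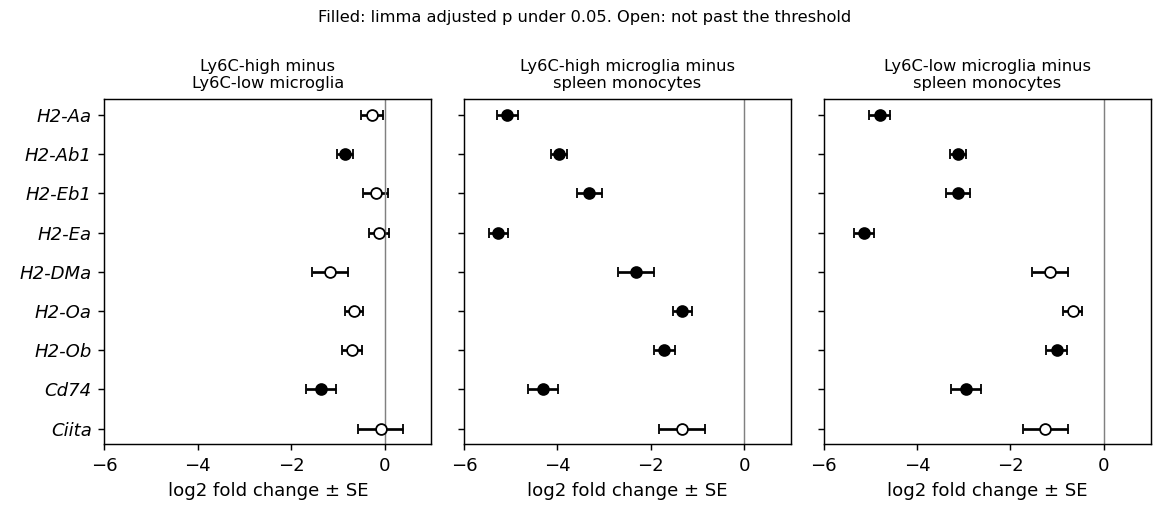
Log2 fold change ± SE (horizontal axis) of the 9 measured class II presentation genes in Ly6C-high against Ly6C-low microglia, Ly6C-high microglia against monocytes and Ly6C-low microglia against monocytes, with filled points for limma adjusted p under 0.05. All 27 points lie below 0; filled points number 2, 8 and 6 in the 3 panels.

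Of 10 measured promoter factors, 4 were lower in Ly6C-high than in Ly6C-low microglia and 0 higher: the NF-Y subunit Nfya (-1.17 ± 0.24), the coactivators Ep300 (-1.13 ± 0.22) and Crebbp (-0.88 ± 0.16), and the RFX subunit Rfx5 (-0.88 ± 0.20), with limma adjusted p from 0.0066 to 0.0165. Rfx5, which binds the X box, had 6.20, 6.35 and 6.37 in the Ly6C-high arrays, 7.05, 7.57 and 6.95 in the Ly6C-low arrays, and 6.33, 6.17 and 6.72 in the monocyte arrays. It was thus higher in Ly6C-low microglia than in monocytes (0.78 ± 0.20, limma adjusted p = 0.0294), and Ly6C-high microglia overlapped monocytes (-0.10 ± 0.20, limma adjusted p = 0.699). The relation of Rfx5 to the class II levels was not tested. In Ly6C-high microglia 4 of the 10 were lower than in monocytes, Crebbp (-0.98), Ep300 (-0.92), the acetyltransferase Kat2b (-0.79) and the NF-Y subunit Nfyb (-0.70), and Ly6C-low microglia were lower in Kat2b (-0.85) and higher in Rfx5. The list's median log2 fold change was -0.15 between the microglia groups, -0.32 for Ly6C-high microglia against monocytes and -0.06 for Ly6C-low microglia against monocytes, beside 0.05, 0.09 and 0.05 for all genes; the same medians of all genes apply to the lists below. The share of all genes that passed, in the same order of comparisons, was 15.4%, 21.5% and 14.5%, and the counts of this list and the next ones stand beside it. For Ly6C-low microglia against monocytes, the 2 of 10 promoter factors and the 2 of 11 Ciita control genes lie near that share.

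Of 11 measured genes of interferon gamma signalling and Ciita control, 4 were lower in Ly6C-high than in Ly6C-low microglia and 0 higher: the interferon gamma receptor chain Ifngr1 (-1.89 ± 0.45), the myeloid transcription factors Spi1 (-1.71 ± 0.43) and Irf8 (-1.43 ± 0.20), and the kinase Jak1 (-1.42 ± 0.30), with limma adjusted p from 0.0019 to 0.0302. Irf8 had 7.65, 8.42 and 8.29 in the Ly6C-high arrays, 9.43, 9.66 and 9.57 in the Ly6C-low arrays, and 9.27, 9.29 and 9.59 in the monocyte arrays. Its Ly6C-high arrays lay below all others, and the Ly6C-low and monocyte arrays overlapped (0.17 ± 0.20, limma adjusted p = 0.694). Against monocytes, 8 of the 11 were lower in Ly6C-high microglia, with the transcription factor Irf4 (-2.47), Ifngr1 (-2.42), Ifngr2 (-2.39), the repressor Prdm1 (-2.19) and Spi1 (-2.13) differing most. Only Jak2 (-1.68) and Prdm1 (-1.45) were lower in Ly6C-low microglia than in monocytes in this list. In the same order of comparisons its medians were -0.92, -1.61 and -0.45.

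Of 13 measured genes of class II processing and turnover, 7 were lower in Ly6C-high than in Ly6C-low microglia and 0 higher, led by the endopeptidase Lgmn (-3.06 ± 0.45), the tetraspanin Cd82 (-2.22 ± 0.24), the cathepsins Ctss (-1.95 ± 0.23), Ctsd (-1.92 ± 0.25) and Ctsb (-1.80 ± 0.21). Their limma adjusted p ran from 4.34e-04 to 0.0022. Ctss, which makes the last cuts in the invariant chain, had 9.74, 10.73 and 10.56 in the Ly6C-high arrays, 12.14, 12.38 and 12.36 in the Ly6C-low arrays, and 11.41 in each of the 3 monocyte arrays. The groups did not overlap, with Ly6C-low microglia highest.

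Against monocytes, Ly6C-low microglia were higher in 5 of the 13 processing genes and lower in 0: Lgmn (2.22), Ctsd (2.21), the tetraspanin Cd63 (1.65), Ctsl (1.54) and Ctss (0.88). Ly6C-high microglia were lower than monocytes in 7 of the 13 and higher in 0, led by the thiol reductase Ifi30 (-2.36), Cd82 (-1.95), Ctsb (-1.57), the protease Sppl2a (-1.09), which clears the last invariant chain stub, and Ctss (-1.07). Marchf1, a ubiquitin ligase that removes class II from the surface, was lower in Ly6C-high microglia than in Ly6C-low microglia (-1.05 ± 0.17, limma adjusted p = 0.0036) and than in monocytes (-0.83 ± 0.17, limma adjusted p = 0.0099). The medians of the processing list were -1.30 between the microglia groups, -0.83 for Ly6C-high and 0.23 for Ly6C-low microglia against monocytes. H2-Eb2, a further class II beta gene measured outside the member list, passed in no comparison (0.29, -0.20 and -0.49 in that order).

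Cd74 at the cell surface is also known as a receptor for the cytokine MIF. Of 5 measured genes of that axis, Cxcr4, a chemokine receptor that pairs with Cd74, was higher in Ly6C-high than in Ly6C-low microglia (1.50 ± 0.39, limma adjusted p = 0.0345) and none was lower. This count of 1 of 5 lies near the share of 15.4% of all genes. All 5 were lower in Ly6C-high microglia than in monocytes, from Cxcr2 (-4.21) and the coreceptor Cd44 (-3.06) through Cxcr4 (-1.74) to Mif (-1.11) and its relative Ddt (-1.10). In Ly6C-low microglia 4 of 5 were lower than in monocytes, all but Ddt (-0.71, limma adjusted p = 0.0821). Cd44 had 7.02, 9.33 and 6.19 in the Ly6C-high arrays, 5.51, 6.30 and 7.03 in the Ly6C-low arrays, and 10.45, 10.67 and 10.60 in the monocyte arrays. Ly6C-high array 2 was nearest to the monocyte arrays, and the other arrays of its group overlapped the Ly6C-low arrays. The list medians were 0.32 between the microglia groups, -1.74 for Ly6C-high microglia against monocytes and -3.24 for Ly6C-low microglia against monocytes.

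Of 14 measured genes of class I presentation, which serves CD8 T cells, 4 were lower in Ly6C-high than in Ly6C-low microglia and 0 higher: the chaperones Canx (-1.17) and Calr (-0.95), the peptide editor Tapbpl (-0.95) and the class I chain H2-M3 (-0.86), with a list median of -0.43. The class I chains H2-K1, H2-D1 and H2-T23 were listed but not measured, because their probe sets are shared by several genes. Ly6C-high microglia were lower than monocytes in 7 of 14, with a list median of -0.75, led by the immunoproteasome subunit Psmb8 (-2.10) and the peptide transporter Tap1 (-1.84). Ly6C-low microglia were lower than monocytes in 4, Tap1 (-1.60), Psmb8 (-1.51), Psmb9 (-1.38) and Psmb10 (-0.88), and higher in Calr (0.63), with a list median of -0.25. B2m, the light chain of class I, had 11.87, 12.13 and 12.05 in the Ly6C-high arrays, 12.24, 12.39 and 12.20 in the Ly6C-low arrays, and 12.35, 12.20 and 12.26 in the monocyte arrays, and no comparison of it passed. Nlrc5, the class I counterpart of Ciita, passed in none either (differences of -0.04 between the microglia groups, -0.27 for Ly6C-high microglia against monocytes and -0.23 for Ly6C-low microglia against monocytes).

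**Figure D4:**
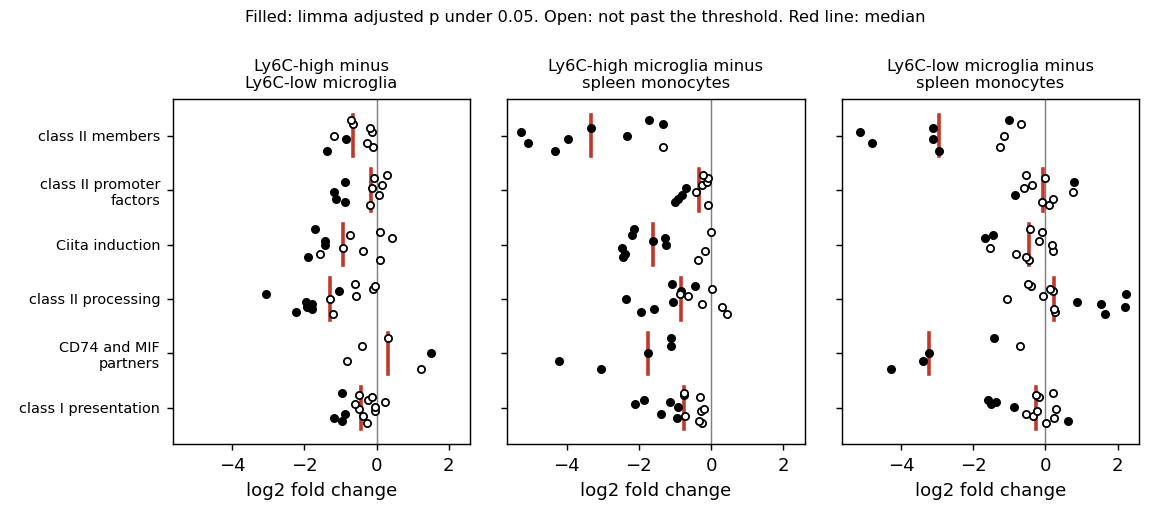
Log2 fold changes (horizontal axis) of the class II members and of 5 related gene lists in the 3 comparisons; a point is 1 gene, filled where limma adjusted p is under 0.05, and the red line is the list median. The class II members have medians of -3.32 and -2.95 against monocytes, and the class II processing genes lie mostly below 0 in Ly6C-high microglia and include 5 filled points above 0 in Ly6C-low microglia against monocytes.

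The arrays also differed in markers of other cell types. Mean levels of 11 brain endothelium markers ran from 10.51 to 10.98 in the Ly6C-high arrays, 6.38 to 7.81 in the Ly6C-low arrays and 6.38 to 6.49 in the monocyte arrays, and those of 11 homeostatic microglia markers from 8.21 to 8.90 in the Ly6C-high arrays, 10.74 to 11.21 in the Ly6C-low arrays and 6.91 to 6.95 in the monocyte arrays. All 11 endothelium markers were higher and all 11 microglia markers lower in Ly6C-high than in Ly6C-low microglia, beside the lower Cd74 and H2-Ab1 of that group. Their part in the class II differences was not tested.

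Ly6C-high array 2 stood apart from its group in monocyte markers. The mean of 9 classical monocyte markers was 9.47 in that array, 7.39 and 6.32 in Ly6C-high arrays 1 and 3, 5.93 to 6.43 in the Ly6C-low arrays and 10.1 to 10.5 in the monocyte arrays. Ly6C-low array 3 stood apart in 10 neutrophil markers, with a mean of 9.56 beside 6.72 and 7.01 in Ly6C-low arrays 1 and 2. Among the Ly6C-high arrays, array 2 was the highest for 4 of 9 class II members, array 1 also for 4 and array 3 for 1, where over all genes they were the highest for 27.6%, 48.5% and 23.9%. The part of these markers in the class II levels was not tested.

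The mean of 11 measured B cell markers ran from 5.67 to 6.08 in the Ly6C-high arrays, 5.38 to 5.63 in the Ly6C-low arrays and 8.05 to 8.64 in the monocyte arrays. Of these markers 10 of 11 were lower than in monocytes in Ly6C-high microglia and 11 of 11 in Ly6C-low microglia. Ms4a1, which encodes the B cell antigen CD20, had 4.47, 4.01 and 4.04 in the Ly6C-high arrays, 4.16, 3.79 and 4.12 in the Ly6C-low arrays, and 8.21, 9.19 and 8.66 in the monocyte arrays. The 12 dendritic cell markers averaged 5.37 to 5.59 in the Ly6C-high arrays, 5.55 to 5.63 in the Ly6C-low arrays and 6.21 to 6.61 in the monocyte arrays, and 6 and 5 of them were lower in Ly6C-high and Ly6C-low microglia than in monocytes. T cell markers were likewise lower than in monocytes for 8 of 8 measured genes in both microglia groups. The part of these cells in the class II levels of the monocyte arrays was not tested.

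**Figure D5:**
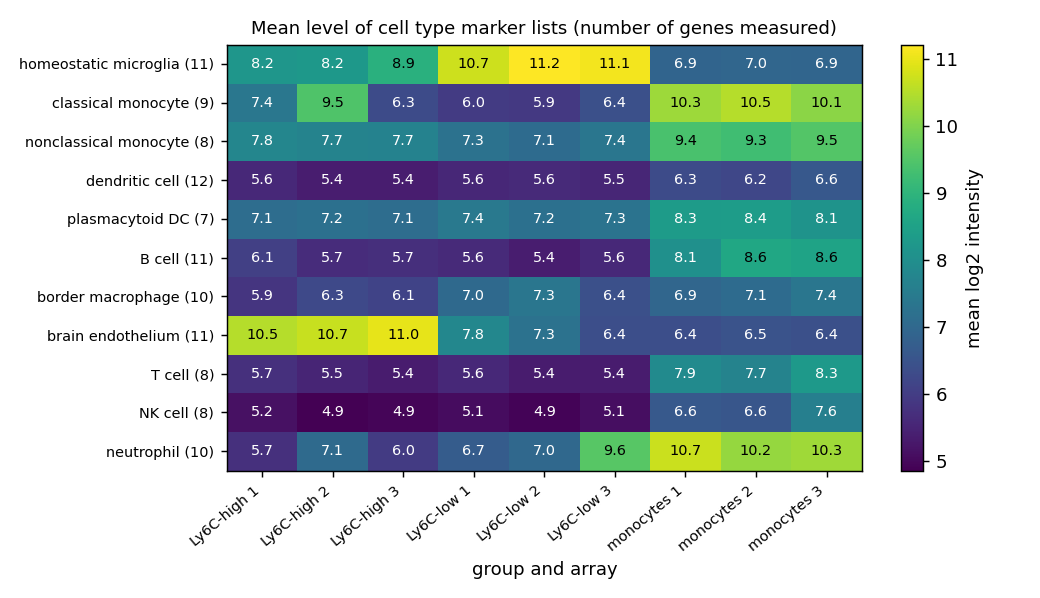
Mean log2 intensity of 11 cell type marker lists (rows, with the number of measured genes) in the 9 arrays (columns); brighter cells are higher and each cell gives its value. Endothelium markers are high in the Ly6C-high arrays, microglia markers in the Ly6C-low arrays, and monocyte, B cell, T cell and neutrophil markers in the monocyte arrays, with Ly6C-high array 2 at 9.5 for classical monocyte markers and Ly6C-low array 3 at 9.6 for neutrophil markers.

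Genes with profiles most like those of Cd74 and Ciita were looked up by the root mean square difference of centred log2 values over the 9 arrays, as a description. Members and genes with predicted or clone-based symbols were left out of this lookup. Nearest to Cd74 outside the members were the chromatin organiser Satb1 (0.38), the B cell receptor component Cd79b (0.44), Fgl2 (0.53), Ripor2 (0.54) and the proton-sensing receptor Gpr65 (0.57). Satb1 averaged 6.88 in the Ly6C-high arrays, 7.79 in the Ly6C-low arrays and 10.71 in the monocyte arrays, the order seen for Cd74. Nearest to Ciita were Cmbl (0.23), the death ligand Fasl (0.24) and the natural killer cell receptor genes Ncr1, Klrg1 and Klra3 (0.29 each). These genes were chosen for their likeness over the same 9 arrays, so a shared high array is part of the choice. Among the members themselves, H2-Oa and H2-Ob differed by 0.31 and H2-Ab1 and H2-Eb1 by 0.34, next after H2-Aa with H2-Ea.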

How the data were processed

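The values are log2 intensities of whole-transcript Affymetrix arrays, deposited by the authors in 1 table with 9 columns. The submitters' processing notes name RMA and oligo; their versions and the genome build were not found in the sources used here. Values were used as deposited, without further scaling. The interquartile range of an array was 2.24 at the lowest, 2.62 at the next lowest and 2.91 at the highest. With quantile normalization Cd74 and H2-Ab1 still passed between the microglia groups (limma adjusted p = 0.0480 and 0.0320). Of 34760 probe sets, 21640 had 1 gene symbol, 1321 several and 11799 none in the platform annotation, and genes were named only from the first kind. Gene IDs of 21553 were found in RefSeq, which changed 0 symbols.

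With limma 3.58.1 in R 4.3.3, 1 linear model over the 9 arrays estimated a mean per group, and the 3 differences were tested two-sided with Benjamini-Hochberg adjustment over 19937 genes. The code was tested on simulated data. The shared H2-DM probe set was tested by exact permutation with scipy 1.17.1. All members are named. Of the list genes past the threshold, up to 5 with the largest change per list and contrast are named, with Rfx5, Nlrc5, B2m, Ctss, Irf8 and Spi1 as background; Marchf1, Ms4a1 and the further value of Ddt were added after their values were seen. The members and lists were chosen with earlier results of these data known. Some list genes were not analysed here. The alternatives covered scaling, array weights, moderation, dim genes, probe sets, blocks and left-out arrays, 19 in all, of which 1 was added after seeing the data.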

Additional observations from a re-analysis of the deposited data

How the results depend on the processing

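Each comparison was repeated under 19 alternatives. Of 513 single-gene values, 482 kept their direction and their side of the threshold, 22 came to pass it, 8 ceased to pass it and 1 changed sign: H2-Ea between the microglia groups, 0.058 without Ly6C-high array 1 (-0.32 to 0.058 when 1 array was left out), not past the threshold in any of the 19 settings. The count of members lower in Ly6C-high than in Ly6C-low microglia, 2 as reported, was 4 with array weights and 5 when dim genes were left out. It was 1 without both Ly6C-high array 2 and Ly6C-low array 3, a setting chosen after seeing the data, and ran from 1 to 4 when 1 array was left out. Against monocytes the count was 8 for Ly6C-high microglia (8 to 9 when 1 array was left out) and 6 for Ly6C-low microglia (5 to 7). H2-Ab1 ceased to pass between the microglia groups only without the 2 arrays together (limma adjusted p = 0.0663, range over the alternatives 0.0037 to 0.0663). For Cd74 the range was 0.0076 to 0.0766. The labels state no pairing, and whether title numbers pair the samples could not be told. Between the microglia groups, deviations of same-numbered arrays correlated at 0.30, 0.15 and -0.03. These few values were not set against all other pairs of arrays, and the pair at 0.30 also shares description number 8. With the replicate block the counts were 2, 8 and 6. Description numbers 8 and 11 occur in both microglia groups (correlations 0.30 and 0.21), and as a random block they gave 3, 8 and 6, with H2-Oa added between the microglia groups. Ly6C-high arrays varied most, with a median SD per gene of 0.27, against 0.14 in Ly6C-low microglia and 0.11 in monocytes. Over all genes, the calls between the microglia groups numbered 3080 as reported, 2038 with 6 arrays, and 2011 and 1956 without Ly6C-low array 2 or 3. For Ly6C-high microglia against monocytes they numbered 4290, and 2505 to 6091 when 1 array was left out; for Ly6C-low microglia against monocytes 2894, 4614 with 6 arrays, 5738 with array weights and 1864 to 3778 when 1 array was left out. The cause of these changes was not tested.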

Other observations

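Some deposited values were identical to every digit between arrays of a group. Ctss had the same value in all 3 monocyte arrays, H2-Ab1 in Ly6C-low arrays 1 and 2, and H2-DMa in Ly6C-low arrays 2 and 3. Over all genes, at least a pair of arrays was identical for 4.95% of genes in the Ly6C-high group, 11.3% in the Ly6C-low group and 9.53% in the monocyte group, and all 3 arrays for 0.181%, 1.29% and 0.923%, with values compared to 9 decimals. An SD within such a group is smaller for these genes, and the step that made the values equal is not recorded in the sources used here.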
